A study of Macaca mulatta with 12 samples.

Results

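The proteasome genes described here are 38 genes that encode the constitutive 20S core, the 19S cap with its assembly chaperones, and the activators that dock on the core. They were picked by gene symbol, with earlier results of these data known. A probe set counted as a member when the array annotation named that symbol and no other. Of the 38 genes, 33 had a probe set of their own, giving 55 of the 22215 non-control probe sets. PSMA6 and PSME2 lay only on probe sets that also named another gene, and PSMC5, PSMD7 and PSMD13 were not analysed here. After the filter on dim probe sets, 50 member probe sets of 32 genes were tested. PSMD3, a scaffold subunit of the 19S lid, did not pass that filter.

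The study profiled total RNA of individual layers of the LGN, the lateral geniculate nucleus and thalamic relay between retina and visual cortex, in monocularly deprived rhesus macaques (Macaca mulatta). Each of the 6 layers was sampled on both sides of the brain, as seen from the deprived eye, on a short-oligonucleotide array designed for human genes, which gave 12 arrays. The 6 deprived samples were ipsilateral layers 2, 3 and 5 and contralateral layers 1, 4 and 6, whose input came from the deprived eye. The 6 non-deprived samples were ipsilateral layers 1, 4 and 6 and contralateral layers 2, 3 and 5, which carried the input of the other eye of deprived animals, so the non-deprived layers are no untreated controls. Layers 1 and 2 are magnocellular, with large relay cells, and gave 4 arrays, and layers 3 to 6 are parvocellular and gave 8. The labels give no age, sex, deprivation method or duration, and do not say how many animals were used or whether RNA was pooled. The p-values below therefore measure the spread left between arrays after deprivation, hemisphere and cell class are fitted, which may lie within an animal.

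The proteasome is the protease that degrades proteins tagged with ubiquitin. Its 20S core is a barrel of outer alpha rings, which gate the entry, and inner beta rings, which carry the cutting sites. The 19S cap binds the ubiquitin chain, removes it, unfolds the protein with a ring of ATPases and feeds it into the barrel. In neurons the proteasome also turns over synaptic proteins, and its subunits are made in matched amounts under shared transcription factors, of which NFE2L1 is the best known.

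Levels are given as the deposited intensity, which was scaled so that each array had almost the same trimmed mean (1500.45 to 1500.6). A difference is a log2 difference from a limma fit with terms for deprivation, hemisphere and cell class, followed by its standard error. Each gene stands for its probe set of highest mean, and levels are compared only within a probe set. Relay neuron markers were present: SLC17A6, the vesicular glutamate transporter of thalamic relay cells, had a geometric mean intensity of 33647 and TCF7L2, a thalamic transcription factor, had 65132. PRKCD, also on that marker list, was below the filter. Over the 12 arrays the proteasome genes had a median SD of 0.36 on the log2 scale, against 0.40 for all 7285 genes tested. PSMA5 varied least, with an SD of 0.20, and the ATPase gene PSMC3 varied most, with an SD of 0.93 and a 9.42-fold range between its lowest and highest array.

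**Figure D1:**
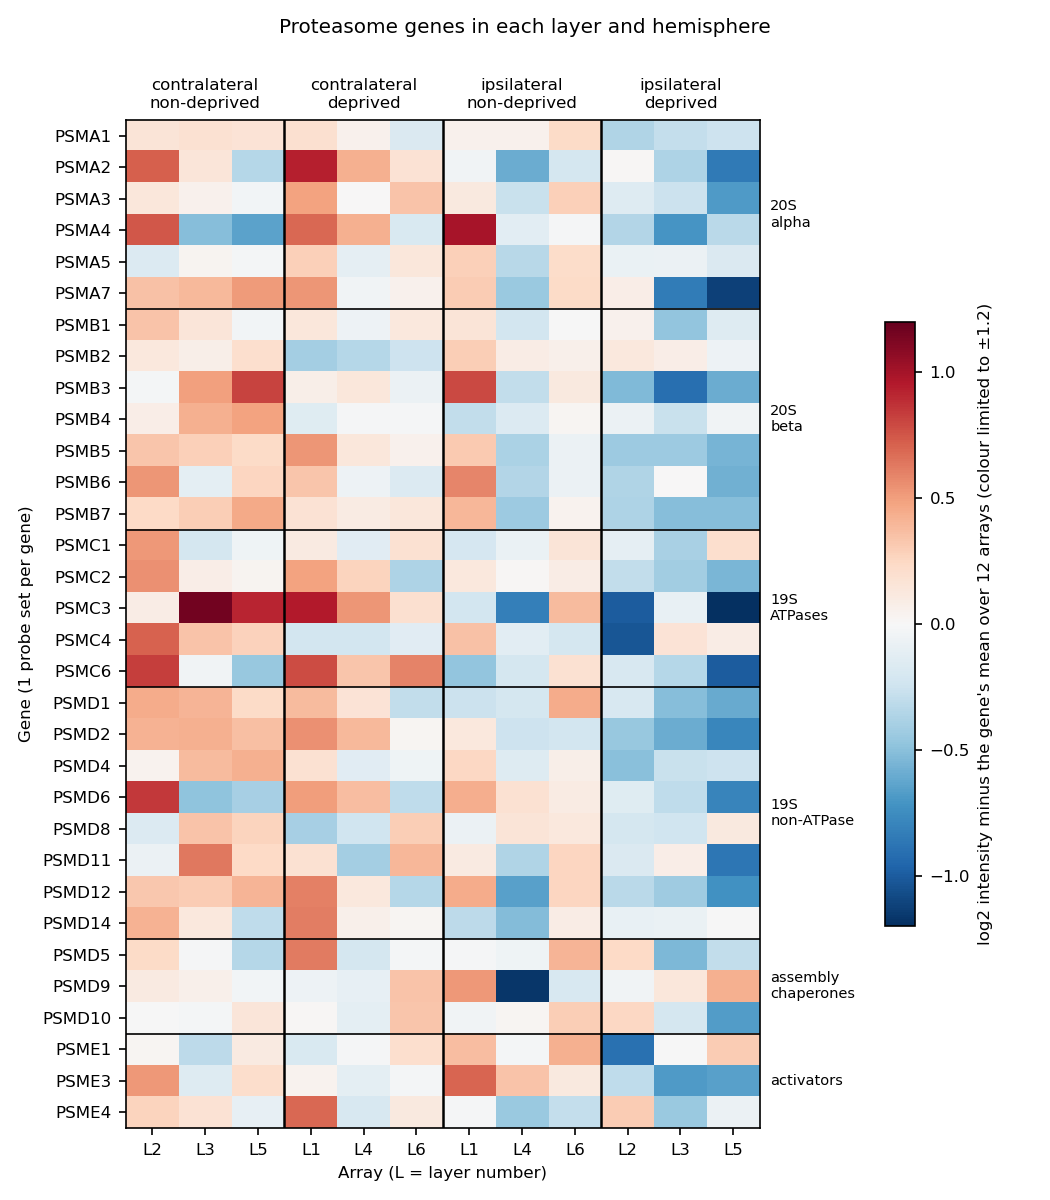
Log2 intensity of 32 proteasome genes on the 12 arrays, each gene minus its own mean, with genes ordered by role on the y axis and arrays grouped by hemisphere and input on the x axis. The 3 ipsilateral deprived arrays on the right are mostly blue, and 26 of the 32 genes had their lowest group mean there. The share of all genes was not counted.

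The arrays differed in quality in ways that bear on every comparison. The ratio of 3' to 5' probe intensity for GAPDH, a measure that grows with RNA degradation, was 9.38 in ipsilateral deprived layer 2. It was 11 in ipsilateral deprived layer 5, and 2.21 to 5.65 elsewhere. The same ratio for ACTB was 17 to 62.9 over all arrays. It was 62.9 and 24.4 in ipsilateral deprived layers 2 and 5, and 54.7 and 43.9 in ipsilateral non-deprived layers 1 and 4. By side it was 39.7 ± 17 (SD, n = 6) ipsilaterally and 25.5 ± 7.9 (n = 6) contralaterally. Ipsilateral deprived layer 2 also had the lowest mean correlation with the other arrays, 0.868 against 0.897 to 0.934. The median intensity of an array was 586 ± 83.4 (SD, n = 6) on the ipsilateral side and 468 ± 39.7 (n = 6) on the contralateral side.

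The first comparison asks how layers driven by the deprived eye differ from layers driven by the other eye. No proteasome gene passed the threshold, and 27 of the 32 genes had a fitted value below 0, where 46.9% of all genes did. By limma with Benjamini-Hochberg adjustment, 0 of 50 member probe sets were called, beside 0.063% of all probe sets, and 13 of the 50 had an unadjusted p under 0.05, where 12% of all probe sets did. Counted by gene, 8 of 32 were lower at that unadjusted threshold and 0 were higher, where 6.3% and 6.09% of all genes were. The median difference of the 32 genes was -0.23, and that of all genes was 0.02. Centring each array on its median intensity shifts all its genes alike and moved the median of all genes to -0.11, and 29 of the 32 were then below 0. The deprived and non-deprived arrays overlapped for each of the 32 genes, and 0.343% of all genes had deprived arrays wholly below the others. In bulk layers, fewer cells of a type and less RNA per cell cannot be told apart.

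The alpha ring showed the smallest shift of the core. Of its 6 genes tested, 5 were fitted below 0, with a median of -0.12. The gene with the largest difference was PSMA7, a constitutive alpha subunit. Its intensity had a lowest, median and highest value of 5240.5, 11398.4 and 16401.2 in deprived arrays and of 8337.8, 14291.5 and 16183.4 in non-deprived arrays. The ranges overlapped widely, and the highest array of all was deprived contralateral layer 1. The fitted difference was -0.45 ± 0.17 (limma adjusted p = 0.33), the deprived array was the lower in 4 of 6 layers, and the gene's other probe set gave -0.16. At the other end of the ring, PSMA5 was at -0.0046 and PSMA2 was at 0.11.

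All 7 beta subunits were fitted below 0, with a median of -0.28 and values from -0.63 to -0.13. PSMB3, a beta subunit without catalytic activity, was lowest. Its intensity was 2108.4, 3234.5 and 4339.2 at the lowest, median and highest of the deprived arrays, and 3202.7, 4911.75 and 6922.9 in the non-deprived arrays. The ipsilateral deprived arrays lay below all others, while contralateral deprived arrays lay within the non-deprived range. The fitted difference was -0.63 ± 0.20, a 1.55-fold lower level (limma adjusted p = 0.228), and the deprived array was lower in 5 of 6 layers.

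The 3 catalytic subunits were each fitted below 0. PSMB5, with the chymotrypsin-like site, had a median of 7330.4 in deprived and 9860.6 in non-deprived arrays, with ranges of 5595.4 to 11898.8 and 6329 to 10362.5. PSMB6, with the caspase-like site, had medians of 10667.7 and 12398.2, with ranges of 7749.6 to 14537.6 and 9076.5 to 17360.9. PSMB7, with the trypsin-like site, had medians of 11085.2 and 14489.8, with ranges of 8419.4 to 13513.7 and 8867.2 to 16421. For each of them the deprived median was the lower and the ranges overlapped. The fitted differences were -0.24 ± 0.14 for PSMB5, -0.28 ± 0.16 for PSMB6 and -0.33 ± 0.14 for PSMB7, and none passed the threshold (limma adjusted p = 0.544, 0.508 and 0.375).

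In the 19S cap, 4 of 5 ATPases and 7 of 8 non-ATPase subunits tested were fitted below 0, with medians of -0.30 and -0.28. PSMD4, a ubiquitin receptor of the cap, had a lowest, median and highest intensity of 7951.5, 9873.45 and 12787 in deprived arrays, and of 10090.6, 12590.8 and 15104.4 in non-deprived arrays. The deprived array was the lower in 5 of 6 layers, and the ranges overlapped. The difference was -0.34 ± 0.14 (limma adjusted p = 0.34), and probe sets of the same gene gave -0.50 and -0.43. PSMD14, the deubiquitinase that cuts the chain from the substrate, was the exception among the non-ATPase subunits. Its intensity was 14572.4, 15616.8 and 23808.1 in deprived arrays and 10803.7, 14540 and 20767.5 in non-deprived arrays. The ranges overlapped, and the fitted difference was 0.17 ± 0.15 (limma adjusted p = 0.707). The base assembly chaperones had a median of -0.07 over 3 genes, with PSMD9 at 0.24, PSMD5 at -0.07 and PSMD10 at -0.13.

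The activators held the proteasome gene of smallest p for deprivation. PSME3 encodes the nuclear activator PA28 gamma, and its intensity was 4311.8, 5977.7 and 7092.6 at the lowest, median and highest of the deprived arrays, and 6217.1, 8351.25 and 11175.4 in the non-deprived arrays. It was the only proteasome gene whose deprived array was the lower in all 6 layers, although the groups overlapped, as the non-deprived contralateral layer 3 (6217.1) lay below 3 deprived arrays. The fitted difference was -0.58 ± 0.16, a 1.49-fold lower level (limma adjusted p = 0.172), and its other probe sets gave -0.26, -0.18 and -0.64. PSME1, a subunit of the activator PA28, had medians of 2800.8 in deprived and 2956.7 in non-deprived arrays and a difference of -0.20 ± 0.20 (limma adjusted p = 0.754). It was at 0.07 in parvocellular layers alone and at -0.01 without ipsilateral deprived layer 2, its lowest array. PSME2, its partner in PA28, was not analysed here, and PSME4, the activator PA200, was at 0.14.

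**Figure D2:**
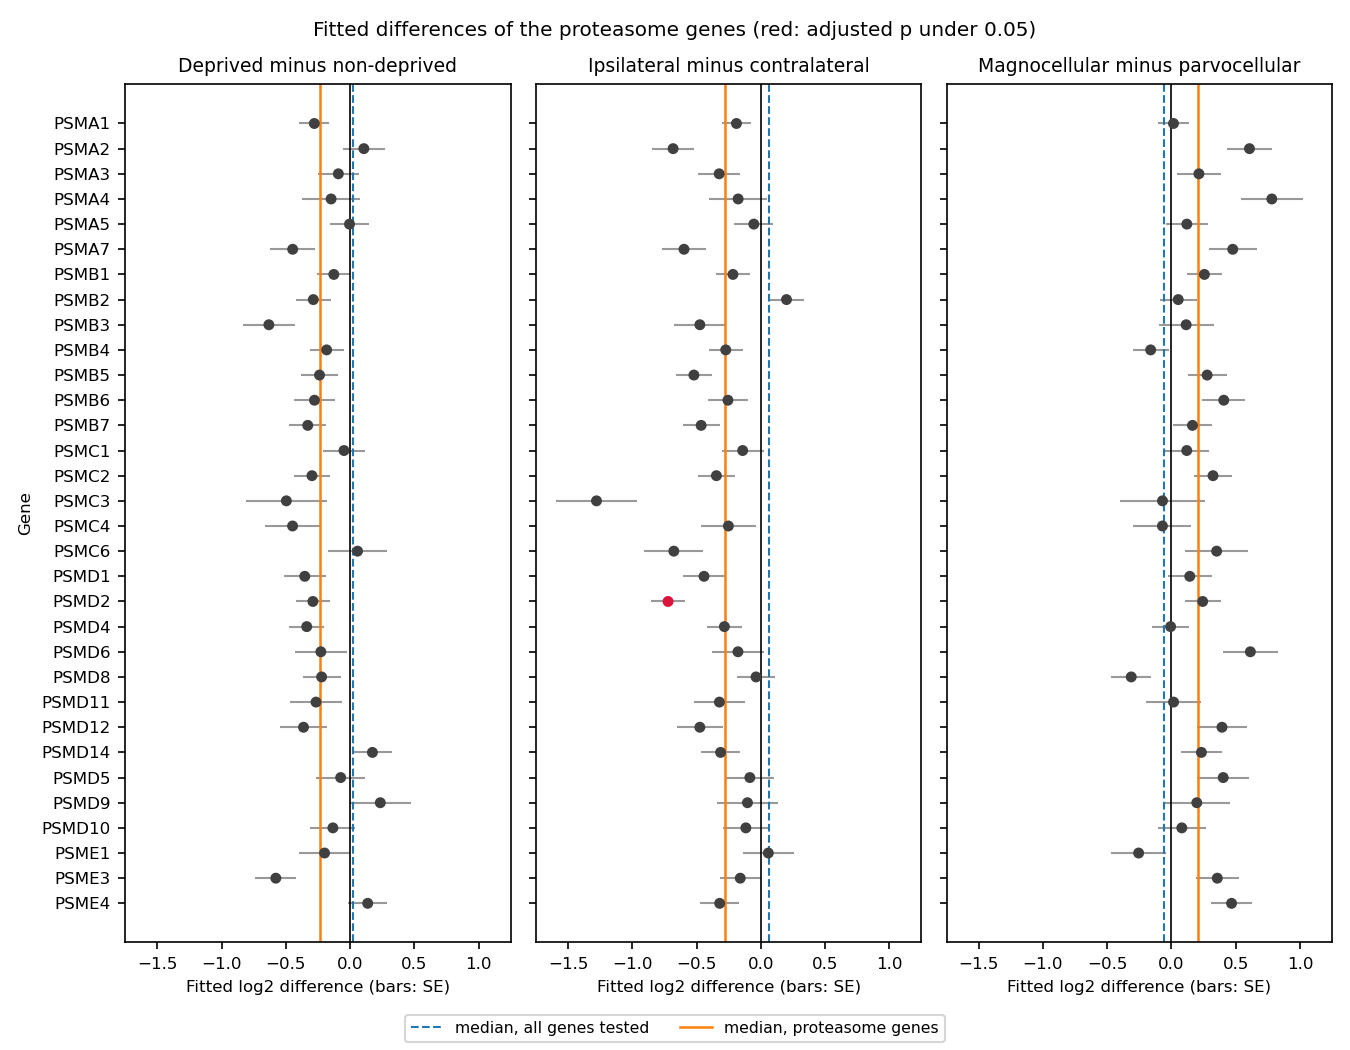
Fitted log2 differences of 32 proteasome genes for deprivation, hemisphere and cell class, with points for the estimates and bars for the standard errors. Most points lie left of 0 for deprivation (27 of 32) and hemisphere (30 of 32) and right of 0 for cell class (26 of 32), and PSMD2, in red, is the 1 call.

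Taken layer by layer, the difference was not the same at each depth. The median difference of the 32 genes, deprived minus non-deprived, was -0.58 in layer 2, -0.52 in layer 3 and -0.53 in layer 5, where 28, 27 and 25 genes were lower. It was 0.11 in layer 1, 0.26 in layer 4 and -0.07 in layer 6, where 12, 9 and 18 genes were lower. The deprived array was ipsilateral in layers 2, 3 and 5 and contralateral in layers 1, 4 and 6, so within a layer deprivation and hemisphere cannot be told apart. The median difference of all genes ran from -0.17 in layer 1 to 0.19 in layer 5. It was 0.06 and 0.08 in layers 2 and 3, -0.08 in layer 4 and 0.03 in layer 6. Of all genes, 46.7%, 44% and 38.4% were lower in layers 2, 3 and 5. In layers 1, 4 and 6 these shares were 59.9%, 55.4% and 47.7%.

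The mean of the 32 genes on the log2 scale, each minus its own mean over the arrays, was lowest in the ipsilateral deprived arrays. It was -0.332 ± 0.101 (SD, n = 3) there, 0.0132 ± 0.227 in ipsilateral non-deprived arrays, 0.124 ± 0.153 in contralateral deprived arrays and 0.195 ± 0.0947 in contralateral non-deprived arrays. The ipsilateral deprived arrays reached from -0.44 to -0.238 and met the other groups only at ipsilateral non-deprived layer 4, with -0.245. By gene, 26 of 32 had their lowest group mean in the ipsilateral deprived arrays, 4 in the ipsilateral non-deprived arrays and 2 in the contralateral deprived arrays. Genes fitted lower both for deprivation and for the ipsilateral side tend to have this lowest group, so the count is no separate result. The share of all genes was not counted for the group means. The highest group mean lay in the contralateral non-deprived arrays for 18 genes, and the single lowest array was ipsilateral deprived layer 5 for 14 genes.

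For 6 of the 32 genes, PSMA1, PSMB3, PSMB5, PSMD2, PSMD4 and PSME3, all 3 ipsilateral deprived arrays lay below the other 9, where 1.3% of all genes showed this. This count was made after the values were seen. PSMA1, an alpha subunit, is 1 example, with 21951.2, 23198 and 23740.7 in ipsilateral deprived layers 2, 3 and 5 and 24981.3 as the lowest value elsewhere. Of the other groups, the contralateral deprived arrays lay below all others for PSMB2 (1.14% of all genes), and the contralateral non-deprived arrays lay above all others for PSMB4 (0.81% of all genes). Ipsilateral deprived layers 2 and 5 are the arrays of highest GAPDH ratio. Without these 2 arrays the median deprivation difference of the 32 genes was -0.12, with 23 genes below 0.

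**Figure D3:**
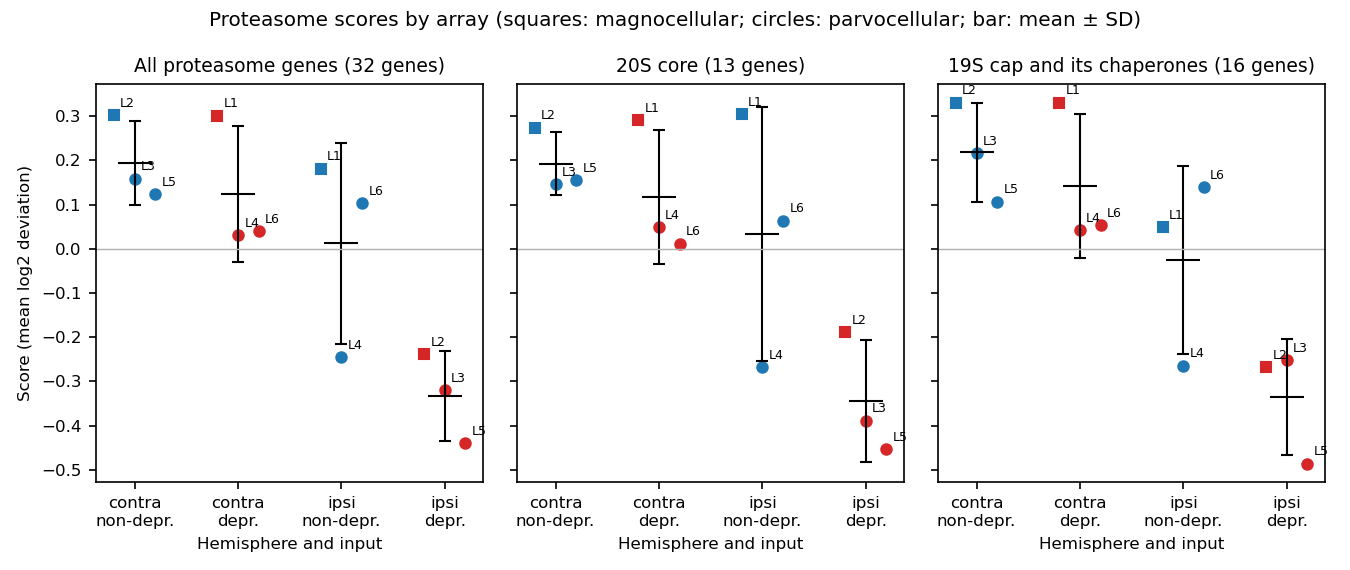
Mean log2 deviation of all 32 proteasome genes, of the 13 core genes and of the 16 genes of the 19S cap and its chaperones on each array, by hemisphere and input, with mean ± SD over 3 arrays. In all panels the ipsilateral deprived group has the lowest mean, and for all 32 genes it is -0.332.

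Markers of the cell types in the layers also differed between the groups in their values. All 9 pan-neuronal markers tested were fitted lower, with a median of -0.26, and their summed intensity was 404001 to 496521 in deprived arrays against 504811 to 585093 in non-deprived arrays, without overlap. The relay neuron markers, 5 of 7 fitted lower with a median of -0.21, summed to 101359 to 117954 and 104440 to 113895. Astrocyte markers (0 of 6 lower, median 0.46) summed to 75238.5 to 119516 in deprived and 49023.3 to 87095.1 in non-deprived arrays. Oligodendrocyte markers (0 of 6 lower, median 0.38) summed to 59173.4 to 142556 and 56759.1 to 100210, and microglia markers (0 of 4 lower, median 0.27) to 7512.5 to 14621.4 and 6386.9 to 8869.1. Endothelial markers (0 of 5 lower, median 0.17) summed to 5558.7 to 7574.9 and 4893.1 to 7098, and blood markers (0 of 2 lower, median 0.24) to 2858.3 to 13973.8 and 3671.1 to 6183.8. Their part in the proteasome values was not tested.

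The comparison of hemispheres asks whether the side of the brain mattered apart from the input. It gave the 1 call among the proteasome genes, and 30 of the 32 genes were fitted lower on the ipsilateral side, where 42.2% of all genes were. Counted by probe set, 41 of 50 were fitted lower, and the share of all probe sets was not counted. Of the 14 genes with several tested probe sets, 9 agreed in sign. By limma with Benjamini-Hochberg adjustment, 1 of 50 member probe sets passed, beside 0.108% of all probe sets, and 14 had an unadjusted p under 0.05, beside 20.1%. By gene, 11 were lower and 0 higher at that unadjusted threshold, where 6.82% and 12.9% of all genes were. The median difference was -0.28, against 0.06 for all genes. Leaving out ipsilateral deprived layers 2 and 5 gave -0.22, with 27 of 32 genes below 0. In no gene did the groups separate completely, and 0.426% of all genes had ipsilateral arrays wholly below contralateral ones.

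PSMD2, the large scaffold subunit of the cap base that receives ubiquitin-like carriers, fell on the ipsilateral side. On the contralateral side it measured 22755.1, 22886.1 and 21784.3 in non-deprived layers 2, 3 and 5 and 24858.2, 22225.5 and 17231.3 in deprived layers 1, 4 and 6. On the ipsilateral side it measured 18600.1, 14298.8 and 14567.2 in non-deprived layers 1, 4 and 6 and 12422.1, 11281.1 and 9890.2 in deprived layers 2, 3 and 5. Every layer was lower on the ipsilateral side, and the sides overlapped only because contralateral layer 6 lay below ipsilateral layer 1. The means were 13509.9 ± 3063 (SD, n = 6) and 21957 ± 2544 (n = 6), a difference of -0.72 ± 0.13 or 1.65-fold (limma adjusted p = 0.0493). The call was at the edge of the threshold. It held in 5 of 14 other settings and was lost when any of the 6 deprived arrays, or non-deprived layer 3, 4 or 5, was left out, with limma adjusted p from 0.0152 to 0.873 and a difference from -1.04 to -0.56. The GAPDH ratio, 6.14 ± 3.37 (SD, n = 6) on the ipsilateral and 3.20 ± 0.722 (n = 6) on the contralateral side, moved with it, and its part was not tested beyond the fit with it as a covariate, where the difference was -0.66 (limma adjusted p = 0.873).

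PSMC3, the ATPase gene with the largest hemisphere difference, did not pass. Contralateral arrays had 1893.2, 3975.9 and 3363.6 in non-deprived layers 2, 3 and 5 and 3438.9, 2581.1 and 2037.5 in deprived layers 1, 4 and 6. Ipsilateral arrays had 1525.8, 1007.4 and 2311.4 in non-deprived layers 1, 4 and 6 and 893.2, 1674.8 and 422.2 in deprived layers 2, 3 and 5. Layer 6 was the exception, with the higher value on the ipsilateral side. The difference was -1.28 ± 0.31, or 2.43-fold (limma adjusted p = 0.0955).

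PSMA2, an alpha subunit, was lower on the ipsilateral side in all 6 layers. Its lowest, median and highest intensity was 3837, 5636.45 and 6942 on the ipsilateral side and 5430.9, 8496.7 and 13135.3 on the contralateral side. The sides overlapped because contralateral layer 5 read low. The difference was -0.68 ± 0.16 (limma adjusted p = 0.0935), and its other probe set, at 0.07, did not share it.

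PSMB5, the catalytic subunit described above, was also lower in all 6 layers. Its intensity was 5595.4, 6214.8 and 10276.8 on the ipsilateral side and 8560.2, 9860.6 and 11898.8 on the contralateral side. Only ipsilateral layer 1 reached into the contralateral range. The difference was -0.52 ± 0.14 (limma adjusted p = 0.111). PSMB7 was at -0.46 and PSMB6 at -0.26, while PSMB2 (0.20) and PSME1 (0.06) were the only genes of the 32 fitted above 0. Both were below 0 after median centring, which moved the median of all genes to -0.25.

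By role, the ATPases had the lowest median, -0.35, with 5 of 5 genes below 0, followed by the non-ATPase subunits at -0.32 with 8 of 8. The beta ring was at -0.27 with 6 of 7 and the alpha ring at -0.26 with 6 of 6. The chaperones, with 3 of 3 genes below 0, and the activators, with 2 of 3, had medians of -0.10 and -0.16. Without ipsilateral non-deprived layer 6, the fit called 10 member probe sets, where it called 851 of all 11105, and without each of 9 other arrays it called 0. Of the markers, 8 of 9 pan-neuronal markers were fitted lower on the ipsilateral side, with a median of -0.11 and sums of 404001 to 585093 on the ipsilateral and 457926 to 571258 on the contralateral side. Relay neuron markers (2 of 7 lower, median 0.20) summed to 103494 to 117954 and 101359 to 113895, and microglia markers (0 of 4 lower, median 0.33) to 7129.2 to 14621.4 and 6386.9 to 9001.7. Oligodendrocyte markers (1 of 6 lower, median 0.18) summed to 56759.1 to 142556 and 59173.4 to 108634, and blood markers (0 of 2 lower, median 0.36) to 4002.2 to 13973.8 and 2858.3 to 6473.4. Astrocyte markers (3 of 6 lower, median -0.02) summed to 49023.3 to 118112 and 73134.7 to 119516, and endothelial markers (1 of 5 lower, median 0.11) to 5641.3 to 7574.9 and 4893.1 to 7231. Their part in the result was not tested.

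**Figure D4:**
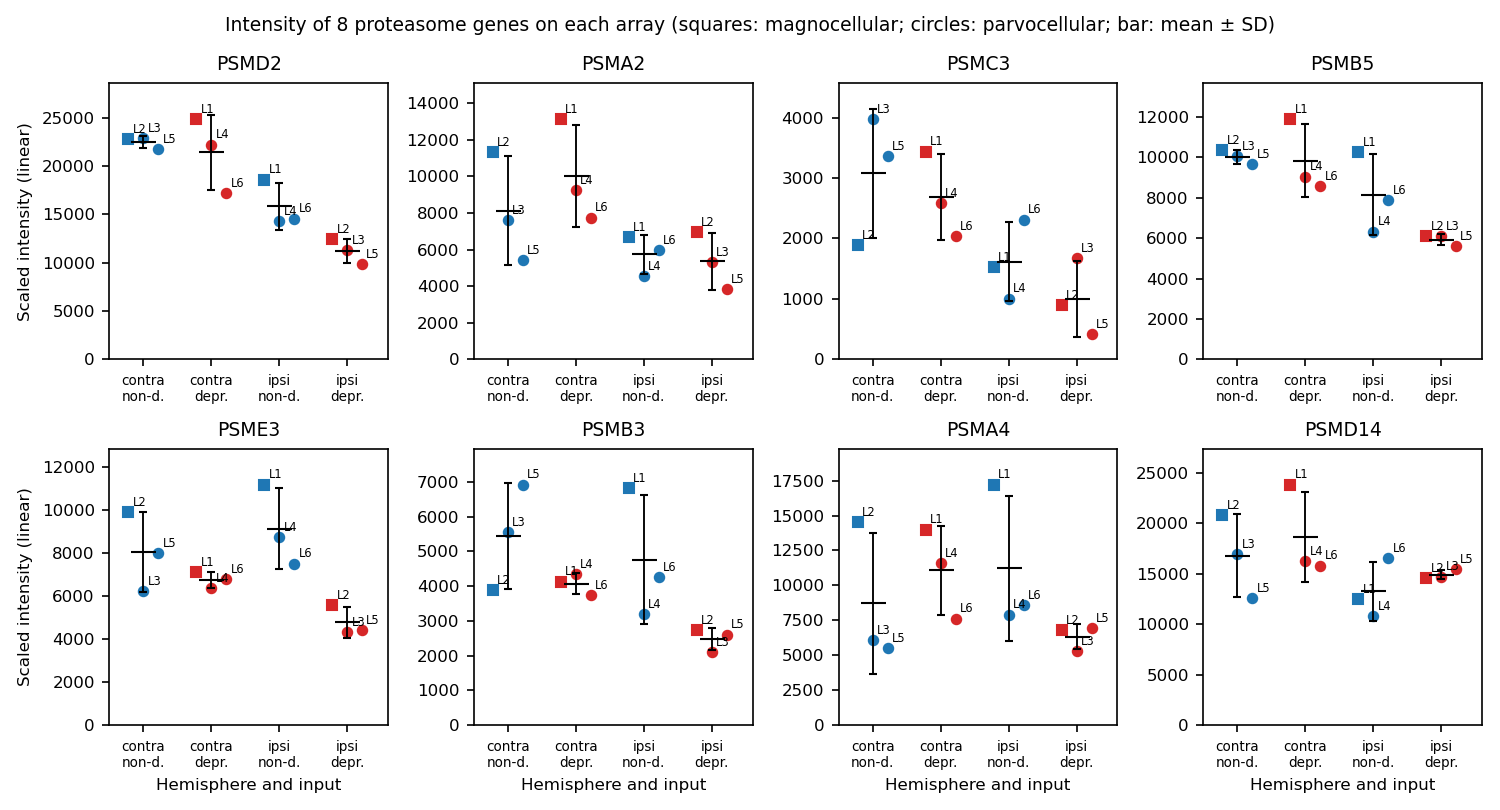
Scaled intensity of 8 proteasome genes on each array, by hemisphere and input, with mean ± SD over 3 arrays. PSMD2 steps down from the contralateral arrays (17231.3 to 24858.2) to the ipsilateral deprived arrays (9890.2 to 12422.1). For PSMD14 the deprived arrays (14572.4 to 23808.1) and the non-deprived arrays (10803.7 to 20767.5) overlap.

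Whether deprivation acted differently on the sides was tested with an interaction term, which is also the contrast between inputs from the ipsilateral and contralateral eye. limma called 0 of 50 member probe sets and 0% of all probe sets, and 5 members had an unadjusted p under 0.05, beside 6.57% of all probe sets. The fitted interaction was below 0 in 25 of 32 genes, where 45.1% of all genes were. Its median was -0.31, against 0.06 for all genes. A value below 0 means that layers 2, 3 and 5 read lower than layers 1, 4 and 6 over both sides. Layer, eye of input and an effect of deprivation that differs by side cannot be told apart in this term. PSMA4, an alpha subunit, had the smallest p. Its intensity was 6779.4, 5302.6 and 6925.1 in ipsilateral deprived layers 2, 3 and 5 and 17213.8, 7897.2 and 8570.4 in ipsilateral non-deprived layers 1, 4 and 6. On the contralateral side it was 13984.5, 11603 and 7611.9 in deprived layers 1, 4 and 6 and 14529, 6082.2 and 5528 in non-deprived layers 2, 3 and 5. The deprived arrays were thus all below the non-deprived ones on the ipsilateral side and mixed with them on the contralateral side. PSMA4 was picked by the p of this same term, and the share of all genes with that pattern was not counted. The interaction was -1.19 ± 0.36 (limma adjusted p = 0.513).

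PSME3 was next in that test. Its ipsilateral mean was 4766 ± 711 (SD, n = 3) in deprived and 9134 ± 1871 in non-deprived arrays, and its contralateral means were 6748 ± 362 and 8035 ± 1848. The ipsilateral groups did not overlap and the contralateral groups did. Here too the gene was picked by this test, and the share of all genes with the pattern was not counted. The interaction was -0.70 ± 0.27 (limma adjusted p = 0.654).

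Magnocellular and parvocellular layers differ in the size and response of their relay cells. No proteasome gene passed the threshold for cell class, and 26 of 32 genes were fitted higher in magnocellular layers, where 42.4% of all genes were. By limma, 0 of 50 member probe sets were called, beside 0.72% of all probe sets, and 10 had an unadjusted p under 0.05, beside 14.6%. By gene, 7 were higher and 0 lower at that unadjusted threshold, where 5.72% and 8.94% of all genes were. The median was 0.21, against -0.06 for all genes, and no gene had groups apart, where 0.728% of all genes had magnocellular arrays wholly above. The medians by role were 0.35 for the alpha ring, 0.16 for the beta ring, 0.12 for the ATPases, 0.19 for the non-ATPase subunits, 0.20 for the chaperones and 0.36 for the activators.

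The genes of smallest p for cell class came from several roles. PSMA2 had 6693.9, 6942, 11325.7 and 13135.3 in the 4 magnocellular arrays and a lowest, median and highest value of 3837, 5693.35 and 9244.2 in the parvocellular ones. The 2 ipsilateral magnocellular arrays lay inside the parvocellular range. The difference was 0.61 ± 0.17 (limma adjusted p = 0.135), it passed without ipsilateral non-deprived layer 6 (limma adjusted p = 0.0452), where 188 of all 11105 probe sets did, and its other probe set gave 0.05.

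PSMA4 had 17213.8, 6779.4, 13984.5 and 14529 in the magnocellular arrays and 5302.6, 7268.5 and 11603 in the parvocellular arrays. Ipsilateral deprived layer 2 was the 1 magnocellular array inside the parvocellular range. The difference was 0.78 ± 0.24 (limma adjusted p = 0.152).

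PSMD6, a subunit of the cap's lid, had 9234.8, 6156.6, 9687.8 and 12247.7 in magnocellular arrays and 3935.3, 5510.65 and 8815.1 in parvocellular arrays, with a difference of 0.61 ± 0.22 (limma adjusted p = 0.212). PSME4 had 3017.9, 3753.2, 4910.9 and 3652 in magnocellular arrays and 2228.6, 2752.15 and 3427.4 in parvocellular arrays, with a difference of 0.47 ± 0.16 (limma adjusted p = 0.206), and another of its probe sets gave -0.01. In both genes 1 magnocellular array lay within the parvocellular range. The 14 genes with several tested probe sets agreed in sign in 7 cases for cell class, in 12 for deprivation and in 9 for hemisphere. The ACTB 3'/5' ratio was 46.4 ± 15.1 (SD, n = 4) in magnocellular and 25.7 ± 8.78 (n = 8) in parvocellular arrays, and its part was not tested beyond a fit with it as a covariate, where the median was 0.19.

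The cell type markers differed between the classes in their values as well. Of all 7285 genes, 57.6% were fitted lower in magnocellular layers, and 28 were called lower and 26 higher. Oligodendrocyte markers were fitted lower in magnocellular layers in 5 of 6 genes, with a median of -0.53 and 2 calls by limma, and summed to 56759.1 to 82255.9 in magnocellular and 81674.9 to 142556 in parvocellular arrays. Pan-neuronal markers (3 of 9 lower, median 0.03) summed to 444442 to 585093 and 404001 to 564314, and 1 of them was called higher, the neurofilament gene NEFM at 0.83. Relay neuron markers (5 of 7 lower, median -0.22) summed to 107122 to 117954 and 101359 to 116370. Astrocyte markers (3 of 6 lower, median -0.0064, 1 called lower) summed to 73134.7 to 119516 and 49023.3 to 118112. Microglia markers (3 of 4 lower, median -0.23) summed to 7329.7 to 9328.1 and 6386.9 to 14621.4, endothelial markers (4 of 5 lower, median -0.18) to 4893.1 to 7574.9 and 5558.7 to 7305, and blood markers (2 of 2 lower, median -0.49) to 2858.3 to 7289.7 and 3671.1 to 13973.8. Their part in the proteasome values was not tested.

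Whether deprivation acted differently on the cell classes was tested in the same way. limma called 0 of 50 member probe sets and 0% of all probe sets, and 2 members had an unadjusted p under 0.05, beside 8.73% of all probe sets. The median interaction was 0.05, against -0.06 for all genes. PSMC4, an ATPase, had the smallest p, with 804.2 and 1406 in the deprived and 2092.8 and 2678.5 in the non-deprived magnocellular arrays. In parvocellular arrays it had 1841.5, 1743.5, 1405.8 and 1496.1 when deprived and 1501.9, 1413.3, 2077.7 and 1988.6 when not. The groups were apart in the magnocellular layers, with 2 arrays each, and overlapped in the parvocellular ones. PSMC4 was picked by this test, and the share of all genes apart in this way was not counted. The interaction was -1.06 ± 0.38 (limma adjusted p = 0.436). It was -0.73 without ipsilateral deprived layer 2, the lowest array.

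PSME1 was next, with an interaction of -0.81 ± 0.38 (limma adjusted p = 0.573). Its magnocellular arrays had 1515.3 and 2485 when deprived and 3649.7 and 2868.2 when not. The lowest of these was again ipsilateral deprived layer 2, and without it the interaction was -0.34. In parvocellular arrays PSME1 had 2807.5, 3474.7, 2794.1 and 3237.9 when deprived and 2772, 3796.9, 2263.6 and 3045.2 when not, and these overlapped.

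The genes around the proteasome were described from lists of 65 genes, of which 48 had a probe set and 45 were tested. By limma 0 of these 45 passed for deprivation, where 0.063% of all probe sets did. Of the 45, 28 were fitted lower (against 46.9% of all genes) and 17 higher, with a median of -0.16, and 7 were lower at an unadjusted p under 0.05 (against 6.3% of all genes). For hemisphere 26 were fitted lower (against 42.2% of all genes), with a median of -0.07. For cell class UBE2H, a ubiquitin-conjugating enzyme, was the 1 call and was lower in magnocellular layers, at -1.06, where 28 of all 7285 genes were called lower.

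NFE2L1, the transcription factor that raises proteasome gene expression, was lower in deprived arrays in all 6 layers. Its intensity was 10245 to 13090.7 in deprived arrays and 13837 to 16838.7 in non-deprived arrays. The groups did not overlap, which 0.343% of all genes showed in this direction. The difference was nevertheless -0.29 ± 0.12 and did not pass (limma adjusted p = 0.354), and its other probe sets gave -0.42 and -0.11. MAFG, a small Maf protein that pairs with such factors, was at -0.23 ± 0.19, and the regulators had a median of -0.15 over 4 genes.

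The deubiquitinases known from brain had a median of -0.23, with 5 of 6 genes fitted lower. UCHL1, an abundant neuronal ubiquitin hydrolase that is also on the pan-neuronal marker list, had 47963 to 81378.5 in deprived and 59739.3 to 86635.2 in non-deprived arrays. The ranges overlapped, and the difference was -0.30 ± 0.11 (limma adjusted p = 0.28). OTUB1, which also inhibits some ubiquitin-conjugating enzymes, had 10203.8 to 39765.5 and 25727.8 to 54450.3, with a difference of -0.69 ± 0.25 (limma adjusted p = 0.298). Its lowest array was ipsilateral deprived layer 2, and without it the difference was -0.41.

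The enzymes that activate and conjugate ubiquitin showed no common shift, with 6 of 15 fitted lower and a median of 0.03. UBE2K, a conjugating enzyme that builds degradation chains, was at -0.45 ± 0.17 (limma adjusted p = 0.318), with its other probe set at 0.22, and UBE2N, which builds non-degradative chains, was at -0.21 ± 0.13. UBB, the 1 ubiquitin gene tested, was at -0.20 ± 0.11. Among the shuttle factors (4 of 6 lower, median -0.15), NSFL1C, a cofactor of the unfoldase VCP, was at -0.43 ± 0.18 and VCP at -0.21 ± 0.14. None of these passed the threshold by limma.

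The immunoproteasome subunits, which replace the catalytic beta subunits in immune responses, had fitted differences of opposite sign. PSMB10 was at -0.70 ± 0.32 (limma adjusted p = 0.396) and PSMB9 at 0.34 ± 0.19 (limma adjusted p = 0.495), while PSMB8 was below the filter. PSMB10 had 346.6 in ipsilateral deprived layer 2, and without that array its difference was -0.32. The other proteasome factors had a median of -0.17, with 8 of 11 fitted lower. ECPAS, which tethers core and cap, was at -0.39 ± 0.18, with other probe sets at 0.16 and -0.71, and the inhibitor PSMF1 was at -0.40 ± 0.22.

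**Figure D5:**
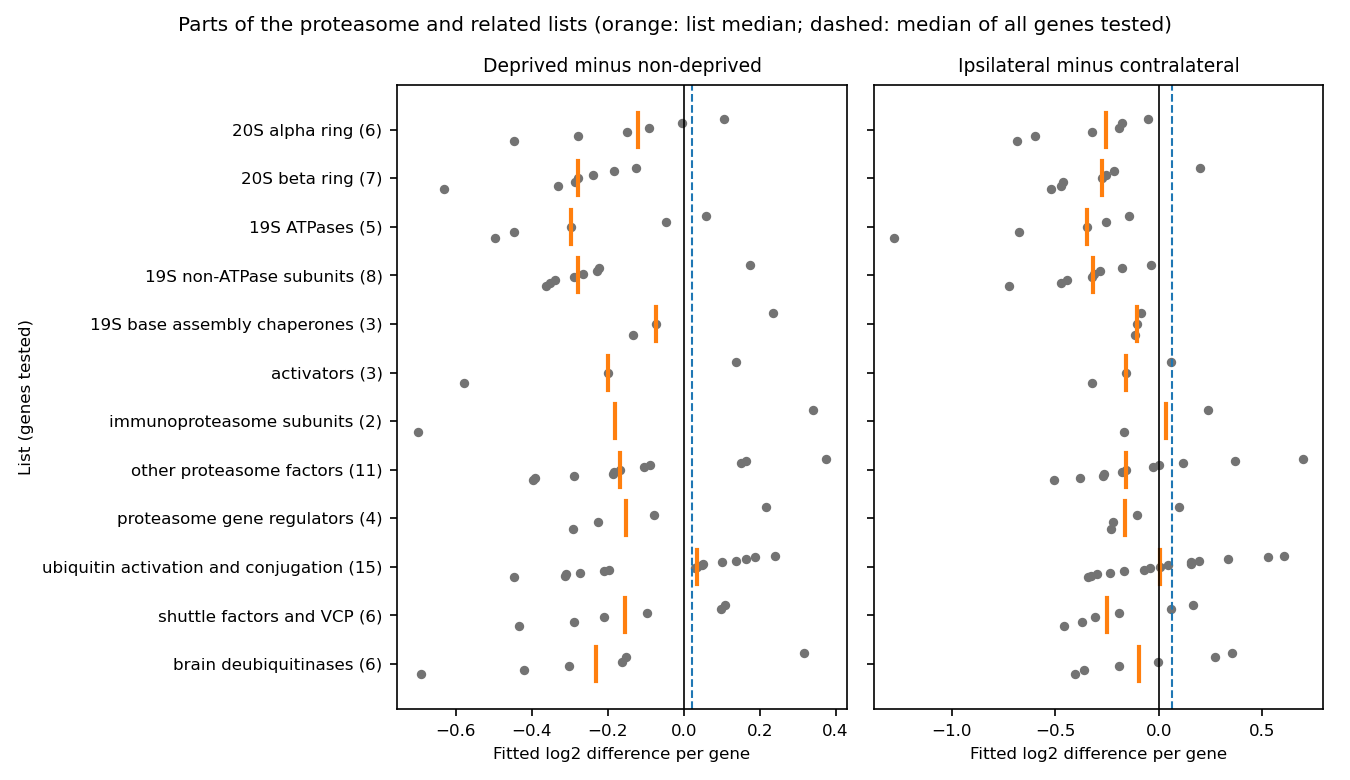
Fitted log2 differences for deprivation and hemisphere of each gene in the proteasome roles and the related lists, with 1 grey point per gene, an orange bar at the list median and a dashed line at the median of all genes. Each role of the member genes has its median below 0 in both comparisons. Of the related lists, the immunoproteasome subunits have a hemisphere median of 0.04, and the ubiquitin activation and conjugation genes are centred near 0 (0.03 for deprivation).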

How the data were processed

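Total RNA of 12 LGN layer samples was measured on a human 3' expression array with 22283 probe sets, 68 of them controls. The deposited table holds the authors' scaled intensity per probe set, on a linear scale and with equal trimmed means (2% trimmed at each end) in all arrays, as the values show. The scanner software and the summarisation method are not given in the sources used here. Probe sets were named through the platform annotation, with 19065 naming 1 gene, 1043 several and 2107 none.

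Values were raised to a floor at the pooled 20th percentile (110.8) and taken as log2. Non-control probe sets with a mean at or above the median were kept (11105 probe sets, 7285 genes). limma 3.58.1 in R 4.3.3 fitted deprivation, cell class and hemisphere (8 residual degrees of freedom), with a trended prior and two-sided tests adjusted by Benjamini-Hochberg over all probe sets tested at a threshold of 0.05, and interaction terms were added 1 at a time. The procedure was tested on simulated data. Of log2 changes of 1, it recovered 69.2% for deprivation, 66.4% for hemisphere and 52.4% for cell class. Of its calls there, 6.81%, 6.54% and 4.38% were false, in that order. The simulated noise was drawn independently for each probe set and array, without quality differences shared over an array. These rates may therefore not hold for the real arrays. Changes smaller than 1 were not simulated. The number of arrays limits the precision.

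The members and lists were chosen with earlier results of these data known. Genes given with their values are the 4 of smallest p in each comparison, the 2 of smallest p in each interaction, those past the threshold, and PSMB5, PSMB6, PSMB7, PSMD4, PSMD14 and PSME1 for their role. PSME2, also in that rule, was not analysed here. In each related list these are the 2 of smallest p for deprivation. Other genes named were chosen after their values were seen. Of the members, PSMA1, PSMA7 and PSME3 rest on probe sets that can hybridise to other transcripts. So do NFE2L1, NSFL1C and UBE2N of the related lists. Alternatives were quantile normalization, median centring, the filter, the floor, the trend, averaging probe sets, dropped terms, the layer number as a replicate block, 3'/5' covariates, parvocellular layers alone, and leaving out arrays. A search of promoters for a motif was planned and not made here.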

Additional observations from a re-analysis of the deposited data

Results flagged for a closer look

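Among 82 groups of arrays checked, 7 held an array that stood apart from the rest, where chance gives about 1 in 20 groups (5 percent). PSMA7 had 8337.8 in ipsilateral layer 4, against a non-deprived median of 14291.5, and the mean of the proteasome genes was lowest of the non-deprived arrays there too, at -0.245 against a median of 0.141. PSMD2 had 17231.3 in contralateral layer 6, the lowest of the contralateral arrays, whose median was 22490.3. PSMC4 had 804.2 in ipsilateral deprived layer 2, against a deprived median of 1451.05, and PSMB10 had 346.6 on the same array, against 1282.75. PSMD14 had 23808.1 in contralateral deprived layer 1, above a deprived median of 15616.8. UBE2K had 10820.7 in contralateral layer 2, against a non-deprived median of 17446.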

How the results depend on the processing

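The deprivation count of called members was 0 in all 27 alternatives and the deprivation-by-hemisphere count was 0 in all 25. The hemisphere count, 1 for PSMD2, was 0 with the layer number as a replicate block (PSMD2 adjusted p = 0.0716 by limma), with quantile normalization, no cell class term, no trend, no filter on dim probe sets, the GAPDH or the ACTB ratio as a covariate, parvocellular layers alone, or ipsilateral deprived layers 2 and 5 left out, and it ran from 0 to 10 as each array was left out. The cell class count ran from 0 to 1 (PSMA2 without ipsilateral layer 6, where 188 of 11105 probe sets were called) and the deprivation-by-class count from 0 to 1 (PSME3 without contralateral deprived layer 1, where 208 were called) as arrays were left out. Median centring moved the proteasome median to -0.37 for deprivation (29 of 32 genes lower, all genes -0.11) and to -0.60 for hemisphere (32 of 32, all genes -0.25), as it shifts all genes of an array alike. Leaving out each array gave medians of -0.263 to -0.198 for deprivation, -0.321 to -0.242 for hemisphere and 0.154 to 0.255 for cell class. PSME1 reversed for deprivation, to 0.0707, in parvocellular layers alone. Apart from what the construction of an alternative shows, the cause was not tested. Same-layer correlations of deviations from the deprivation group means ran from -0.25 to -0.0016, with 0 of 6 pairs over 0.1. Arrays of the same layer lie on opposite sides of the brain, and the hemisphere difference was left in these deviations. The correlations therefore cannot decide whether layer numbers paired the samples. With the layer block, cell class and the deprivation-by-hemisphere term are the same as layer contrasts and could not be fitted.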
